A study of Mus musculus with 12 samples.

Results

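Collagen genes encode the triple-helical proteins that make up the fibres, sheets and microfibrils of the extracellular matrix. They were examined here in 6 ChIP-seq libraries of H3K27ac, a histone acetylation, from Azin2-/- and wild-type mouse adipocyte progenitors. Every protein-coding gene of the mouse build GRCm38 whose symbol reads Col, a number, the letter a and a number was taken, which gave 44 of 21631 genes. They comprise 11 fibrillar, 6 basement membrane, 6 microfibrillar and 9 fibril-associated genes, and 12 of other kinds. The rule used gene symbols alone, but the family was chosen with earlier results of these data known. Each gene was followed over its annotated span with 5 kb on each side, called its locus.

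Each genotype was represented by 3 libraries, numbered 1, 2 and 8 in Azin2-/- and 1, 2 and 2b in wild-type cells. Azin2 encodes an antizyme inhibitor, a protein that frees the polyamine enzyme ornithine decarboxylase from antizyme. In both genotypes the progenitors came from subcutaneous fat and were expanded over 1 week (glucose at 4.5 g/l, serum at 10%). An adipogenic cocktail followed for 2 days, made of rosiglitazone and dexamethasone at 1 µM each, IBMX at 0.5 mM and insulin at 5 µg/ml, and insulin at that dose was kept on for the last 5 days. The sources used here do not state strain, age, sex or the kind of Azin2 allele, nor whether replicates are separate animals. The p-values therefore measure only the spread between these libraries, which may be technical. The study's 6 input libraries were not analysed here. The signal comes from whole cultures, so fewer cells of a type and less of the mark per cell cannot be told apart.

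The lists held 742335 to 1217494 peaks per library, most of them shallow, and the 30000 strongest of each list by the authors' p were used as its main peaks. The background that the deposited fold and p imply had a mean per Azin2-/- library of 0.590 ± 0.378 fragments per bp, against 0.300 ± 0.135 per wild-type library (SD, n = 3 each). Its extremes were 1.02 in Azin2-/- replicate 8 and 0.164 in wild-type replicate 1. At rank 30000 a peak rested on a pileup of 2 to 6 fragments, so presence or absence of a weak main peak turns on a few fragments. Of 8 adipocyte markers, Plin1 had a main peak in all 6 libraries, Fabp4 in 1 and Adipoq in none; their summed scaled cover was 2.70 to 4.01 kb per Azin2-/- library and 2.02 to 4.45 kb per wild-type library. Of 9 progenitor and fibroblast markers, Pdgfra had a main peak in all 6 libraries, and 7 were tested. The one with an unadjusted p under 0.05 was Dlk1, a preadipocyte marker, with 2032, 2119 and 722 bp in Azin2-/- against 0, 1104 and 0 bp in wild-type, a fitted log2 difference of 1.44 ± 0.61 (limma, adjusted p = 0.758). Dcn was at 0 in all 3 Azin2-/- libraries and in wild-type replicate 2, and Lum at 0 in all but wild-type replicate 1. None of 4 endothelial, 4 blood and macrophage or 4 mural and smooth muscle markers had a main peak in all 6 libraries, and of 4 cartilage and bone markers Sox9 and Runx2 did.

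Fibrillar collagens, among them types I, III and V, assemble into the rope-like fibres that give tissue its tensile strength. Basement membrane collagen, type IV, forms the sheet that wraps each adipocyte, and type VI collagen forms beaded microfibrils around fat cells. Fibril-associated collagens sit on the surface of fibres, with interruptions in their triple helix. Progenitors and fibroblasts are known as sources of fibrillar collagen, and adipocyte differentiation is known to shift matrix production towards basement membrane components. H3K27ac accumulates at active promoters, many of which are rich in CG dinucleotides, and at enhancers.

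Promoter sequences are shown for the 4 collagens with a main peak at the start in every library, and for a pair of major fibre chains that had few or none. Main peaks of all 6 libraries stood at the starts of Col4a1, Col4a2, Col5a1 and Col16a1, whereas the start of Col1a2 had a main peak in 0 libraries and that of Col3a1 in 1. Their windows, 250 bases before to 50 after the start in RefSeq's table for GRCm38.p6, are given 5′ to 3′ to let these be compared, with every CG dinucleotide in capitals. The windows are chr8:11312777-11313076, minus strand (Col4a1), chr8:11312555-11312854, plus strand (Col4a2), chr2:27886175-27886474, plus strand (Col5a1), chr4:130047590-130047889, plus strand (Col16a1), chr6:4505368-4505667, plus strand (Col1a2) and chr1:45311288-45311587, plus strand (Col3a1).
Col4a1: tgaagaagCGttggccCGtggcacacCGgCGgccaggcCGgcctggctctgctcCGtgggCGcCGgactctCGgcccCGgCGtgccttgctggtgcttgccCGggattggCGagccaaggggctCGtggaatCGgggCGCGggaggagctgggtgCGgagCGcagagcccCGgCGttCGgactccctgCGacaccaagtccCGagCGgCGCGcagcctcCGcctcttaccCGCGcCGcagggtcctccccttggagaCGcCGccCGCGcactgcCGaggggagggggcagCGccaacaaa
Col4a2: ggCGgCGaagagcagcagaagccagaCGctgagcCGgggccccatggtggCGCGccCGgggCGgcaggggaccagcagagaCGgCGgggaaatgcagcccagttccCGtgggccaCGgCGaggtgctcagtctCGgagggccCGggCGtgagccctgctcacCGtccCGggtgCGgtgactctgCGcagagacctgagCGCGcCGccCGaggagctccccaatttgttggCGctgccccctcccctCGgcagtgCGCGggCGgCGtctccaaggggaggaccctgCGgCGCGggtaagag
Col5a1: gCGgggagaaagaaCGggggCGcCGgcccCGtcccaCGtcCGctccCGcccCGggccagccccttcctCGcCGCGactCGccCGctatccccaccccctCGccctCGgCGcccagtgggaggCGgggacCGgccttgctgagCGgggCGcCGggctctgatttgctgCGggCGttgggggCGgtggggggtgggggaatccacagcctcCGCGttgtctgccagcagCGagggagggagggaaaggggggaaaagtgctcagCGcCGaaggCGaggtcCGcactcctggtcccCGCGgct
Col16a1: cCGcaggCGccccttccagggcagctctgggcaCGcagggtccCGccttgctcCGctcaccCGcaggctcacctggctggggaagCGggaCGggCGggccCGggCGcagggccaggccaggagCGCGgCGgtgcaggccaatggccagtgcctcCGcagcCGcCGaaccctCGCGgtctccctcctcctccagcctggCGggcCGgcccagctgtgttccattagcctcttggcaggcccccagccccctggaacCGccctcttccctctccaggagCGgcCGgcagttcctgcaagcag
Col1a2: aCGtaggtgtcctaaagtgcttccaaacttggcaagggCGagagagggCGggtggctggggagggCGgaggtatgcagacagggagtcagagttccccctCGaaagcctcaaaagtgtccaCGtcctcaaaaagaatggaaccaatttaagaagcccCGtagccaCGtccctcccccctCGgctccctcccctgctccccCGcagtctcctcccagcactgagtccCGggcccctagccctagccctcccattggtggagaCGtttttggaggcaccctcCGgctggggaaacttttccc
Col3a1: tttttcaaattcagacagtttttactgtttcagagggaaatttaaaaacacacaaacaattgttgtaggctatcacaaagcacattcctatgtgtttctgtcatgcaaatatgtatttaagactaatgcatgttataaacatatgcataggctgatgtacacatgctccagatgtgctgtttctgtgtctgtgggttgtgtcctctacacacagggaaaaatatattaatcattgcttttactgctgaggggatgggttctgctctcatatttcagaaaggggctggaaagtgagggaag
The windows of Col4a1 and Col4a2 held 37 and 33 CG dinucleotides, that of Col5a1 34 and that of Col16a1 24. Col1a2 held 13, which is the median of all 17274 windows in the table, and Col3a1 none. Col4a1 and Col4a2, whose products are the main chains of type IV collagen, are transcribed in opposite directions from starts 21 bp apart, and their windows share 78 bp.

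No collagen locus passed the threshold in either direction, and neither did any other locus. The value compared was the covered length, the bases of a locus under main peaks, scaled to equal total cover per library. It was tested by limma on log2(covered bp + 500) over the 11670 loci with a mean of at least 500 bp, 34 of them collagen loci. At a Benjamini-Hochberg adjusted p of 0.05 the calls were 0 higher (0% of loci) and 0 lower (0%) in Azin2-/-, and the smallest adjusted p was 0.743, among collagens and among all loci. At an unadjusted p of 0.05, 506 loci were higher (4.34%) and 249 lower (2.13%). Among the 34 collagens 0 were higher and 4 were lower, Col1a1, Col5a3, Col24a1 and Col4a4.

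The collagens leaned to lower cover in Azin2-/- where the whole set of loci leaned slightly the other way. Their median log2 difference was -0.21, against 0.07 for all tested loci, and 11 of 34 (32.4%) were positive, against 54.6% of all. At a deposited q of 0.01 or less, where fewer loci could be tested, the same medians were -0.035 and -0.033. Every Azin2-/- value lay above every wild-type value at 0 of the 34 (6.72% of all tested loci) and below at 3, Col1a1, Col5a3 and Col4a4 (4.93% of all). At Col4a4 the genotypes overlapped before scaling. By class the median was -0.98 for 8 tested fibrillar loci, -0.72 for 5 basement membrane loci, 0.21 for 4 microfibrillar loci, 0.14 for 7 fibril-associated loci and -0.44 for 10 others. The SD of the library medians within a genotype was 0.53, 0.35, 0.83, 0.36 and 0.46 log2 units for these classes in turn. For all tested collagens it was 0.20. The medians of the microfibrillar, fibril-associated and other classes lay inside the SD of their own class, and no class median was tested. The summed cover of the 44 loci was 46.4, 59.2 and 42.1 kb in Azin2-/- replicates 1, 2 and 8, against 72.0, 67.2 and 49.2 kb in wild-type replicates 1, 2 and 2b, so the genotypes overlapped. The smallest scaled sum came from the library of highest background, Azin2-/- replicate 8, and the largest from that of lowest background, wild-type replicate 1. The other 4 libraries did not follow that order, with backgrounds of 0.293 and 0.462 in Azin2-/- replicates 1 and 2 and of 0.433 and 0.303 in wild-type replicates 2 and 2b. Before scaling, with each region counted once, the cover was 56375, 56161 and 36977 bp in Azin2-/- replicates 1, 2 and 8. In wild-type replicates 1, 2 and 2b it was 50731, 61315 and 58331 bp. Wild-type replicate 1 was thus the largest only after scaling. The part of the background in the difference was not tested.

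**Figure D1:**
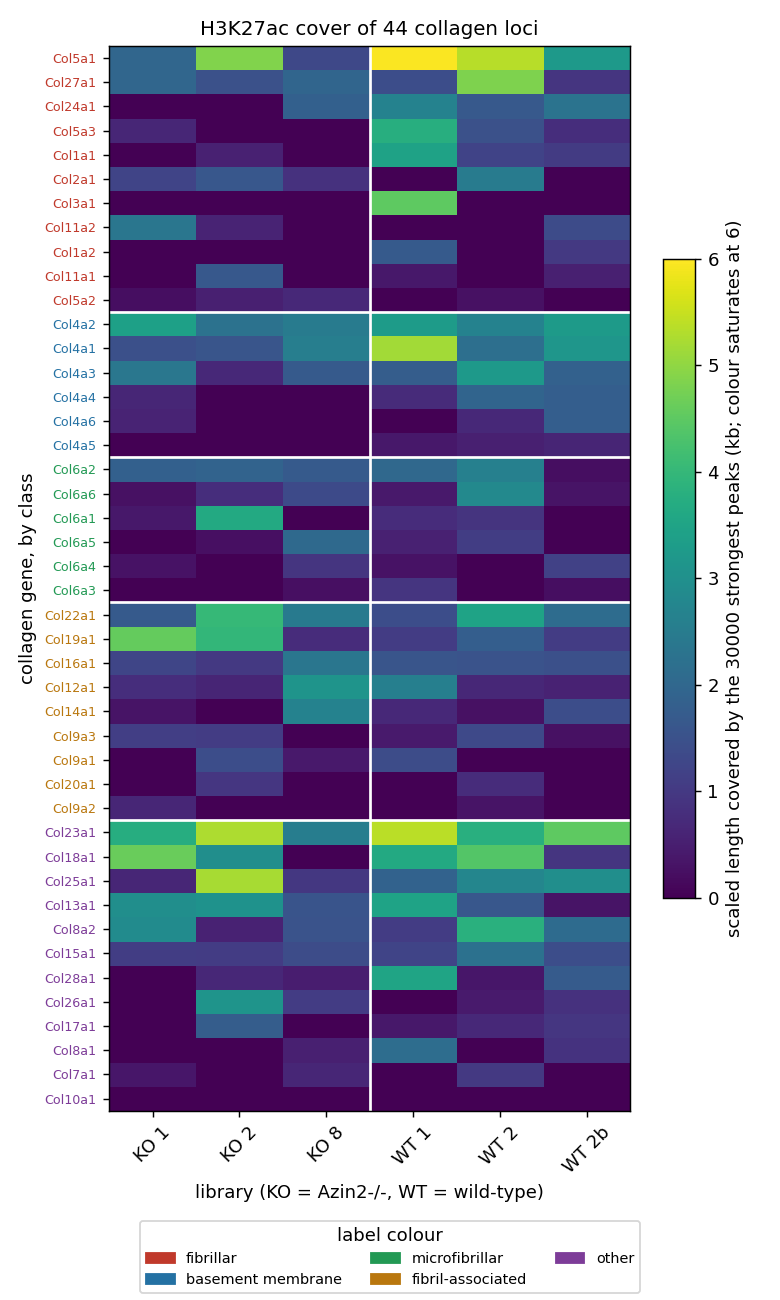
Scaled length covered by main peaks (kb, colour) at each of the 44 collagen loci (rows, grouped by class) in the 3 Azin2-/- libraries on the left and the 3 wild-type libraries on the right. Col5a1, Col4a1, Col4a2 and Col23a1 are covered in every library, with the brightest cells of Col5a1 and Col4a1 in wild-type replicate 1. Col1a1, Col5a3 and Col4a4 are dark in Azin2-/- and Col10a1 is dark throughout.

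A main peak somewhere in the locus was present in all 6 libraries at 16 of the 44 collagens, beside 31.6% of all protein-coding genes. Collagen genes are long, with a median span of 114 kb against 17.3 kb for all protein-coding genes, and a long span gives more room for a peak. At a gene end, within 1 kb, the count was lower than over all genes: 5 of 44, against 18% of all. These were Col4a1, Col4a2, Col5a1, Col16a1 and Col23a1. At Col23a1 no single end reached all 6 libraries. Wild-type replicate 2b had its peak at the end opposite the start, within 1 kb of an end of the neighbouring gene Phykpl. Col10a1, the hypertrophic cartilage collagen, had no main peak in any library, and the other 9 untested loci held main peaks in 2 to 4 libraries each.

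**Figure D2:**
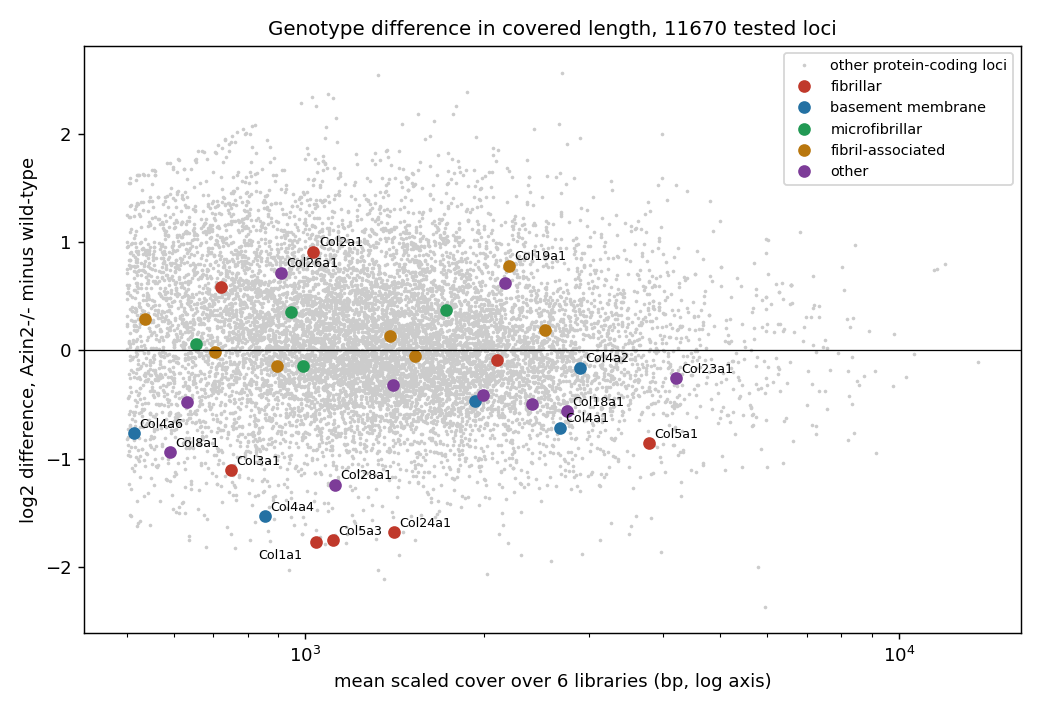
Log2 difference in covered length (Azin2-/- minus wild-type, on the covered bp + 500 scale) against mean scaled cover (bp, log axis) for 11670 tested loci, with the 34 collagen loci in colour by class and the others in grey. Col1a1, Col5a3, Col24a1 and Col4a4 lie lowest among the collagens, between -1.77 and -1.53, and Col2a1 and Col19a1 lie highest, at 0.91 and 0.78.

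Among the fibrillar genes, Col1a1, Col5a3 and Col24a1 had the lowest fitted differences of the family, while Col5a1 was covered in every library. Of the 8 tested, 6 were negative and 2 positive, 3 had an unadjusted p under 0.05, all lower in Azin2-/-, and none passed the adjusted threshold. Col1a1 (chr11:94936224-94953042), a chain of type I collagen, the main collagen of skin and fat septa, had 0, 541 and 0 bp in Azin2-/- replicates 1, 2 and 8, against 3468, 1201 and 1039 bp in wild-type replicates 1, 2 and 2b. The groups did not overlap, and the log2 difference was -1.77 ± 0.58 (SE; limma adjusted p = 0.743). Col5a3, a chain of type V collagen, had 642, 0 and 0 bp in Azin2-/-, against 3755, 1484 and 792 bp in wild-type, a difference of -1.75 ± 0.61. Here too all Azin2-/- values were the lower ones, with wild-type replicate 1 far above its group. Col24a1, a minor fibrillar collagen, had 0, 0 and 1830 bp in Azin2-/-, against 2661, 1678 and 2294 bp in wild-type, a difference of -1.68 ± 0.61. Azin2-/- replicate 8 lay inside the wild-type range there.

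Col5a1, a chain of type V collagen that nucleates type I fibres, had the largest mean cover of the class. Its values were 1969, 4860 and 1311 bp in Azin2-/-, against 5967, 5354 and 3254 bp in wild-type, with a log2 difference of -0.86 ± 0.44. Azin2-/- replicate 2 exceeded wild-type replicate 2b, so the groups overlapped. Col27a1, a fibrillar collagen of cartilage, had 1990, 1499 and 1960 bp in Azin2-/-, against 1408, 4838 and 931 bp in wild-type. Its groups overlapped fully and the difference was -0.08 ± 0.48. Col2a1, the fibrillar collagen of cartilage, had the highest fitted difference of the family, 0.91 ± 0.70, from 1240, 1622 and 846 bp in Azin2-/- against 0, 2486 and 0 bp in wild-type. A peak at its higher-coordinate end was held by all 3 Azin2-/- libraries and by wild-type replicate 2.

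The other fibrillar genes were thinly covered and did not share a direction. Col5a2, a further chain of type V collagen, had 213, 520 and 701 bp in Azin2-/-, against 0, 268 and 0 bp in wild-type, and was not tested. Col11a2, a chain of the cartilage collagen type XI, had 2351, 600 and 0 bp in Azin2-/-, against 0, 0 and 1368 bp in wild-type, a log2 difference of 0.58 ± 0.82; its locus also holds part of the neighbouring gene Rxrb. Col11a1, its partner chain, had 0, 1647 and 0 bp in Azin2-/-, against 378, 0 and 538 bp in wild-type, and was not tested. All 3 had a higher mean in Azin2-/-, with overlapping groups. Col3a1, which encodes type III collagen, had no main peak in any Azin2-/- library and 4501, 0 and 0 bp in wild-type replicates 1, 2 and 2b, so its whole cover came from wild-type replicate 1. Col1a2, the partner chain of Col1a1, had no main peak in Azin2-/- and 1688, 0 and 1001 bp in wild-type. Its mean was under the minimum and it was not tested. The strongest deposited peaks of Col1a1, Col1a2 and Col3a1 were weak on both sides. At Col1a1 they ranked 85851, 19100 and 96762 in Azin2-/- replicates 1, 2 and 8 and 5123, 15223 and 13851 in wild-type replicates 1, 2 and 2b, with pileups of 2 to 5 fragments in Azin2-/- and 4 to 5 in wild-type. At Col1a2 and Col3a1 every library's strongest peak had 3 to 5 fragments.

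The main peaks of Col1a1 did not stack at one place. They formed 8 regions, of which 7 were held by 1 library, and the remaining one, at the lower-coordinate end (chr11:94935499-94936749), by wild-type replicates 1 and 2b. The 3 regions of Col1a2 and the 4 of Col3a1 were each held by 1 library. Col24a1 had 16 regions and all were held by 1 library.

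Over the class the summed cover was 8.41, 11.3 and 6.65 kb in Azin2-/- replicates 1, 2 and 8, against 23.8, 17.3 and 11.2 kb in wild-type replicates 1, 2 and 2b. Azin2-/- replicate 2 exceeded wild-type replicate 2b by a small margin, so these sums overlapped. In wild-type replicate 1, the library of lowest background, 79.9% of the fibrillar cover lay in regions that no other library held. The median difference kept its sign without that library, at -0.71, but was 0.37 in the 5000 strongest peaks, where Col5a1 alone was tested. The summed cover of the 9 progenitor and fibroblast markers was 7.08, 3.04 and 3.81 kb in Azin2-/-, against 12.1, 6.29 and 6.34 kb in wild-type, overlapping through Azin2-/- replicate 1 and again highest in wild-type replicate 1. Of these markers 7 were tested and 2 were positive, with a median of -0.65. The smallest unadjusted p was on the positive side, at Dlk1, and none was under 0.05 on the negative side. The part of cell makeup and of background in the fibrillar difference was not tested.

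**Figure D3:**
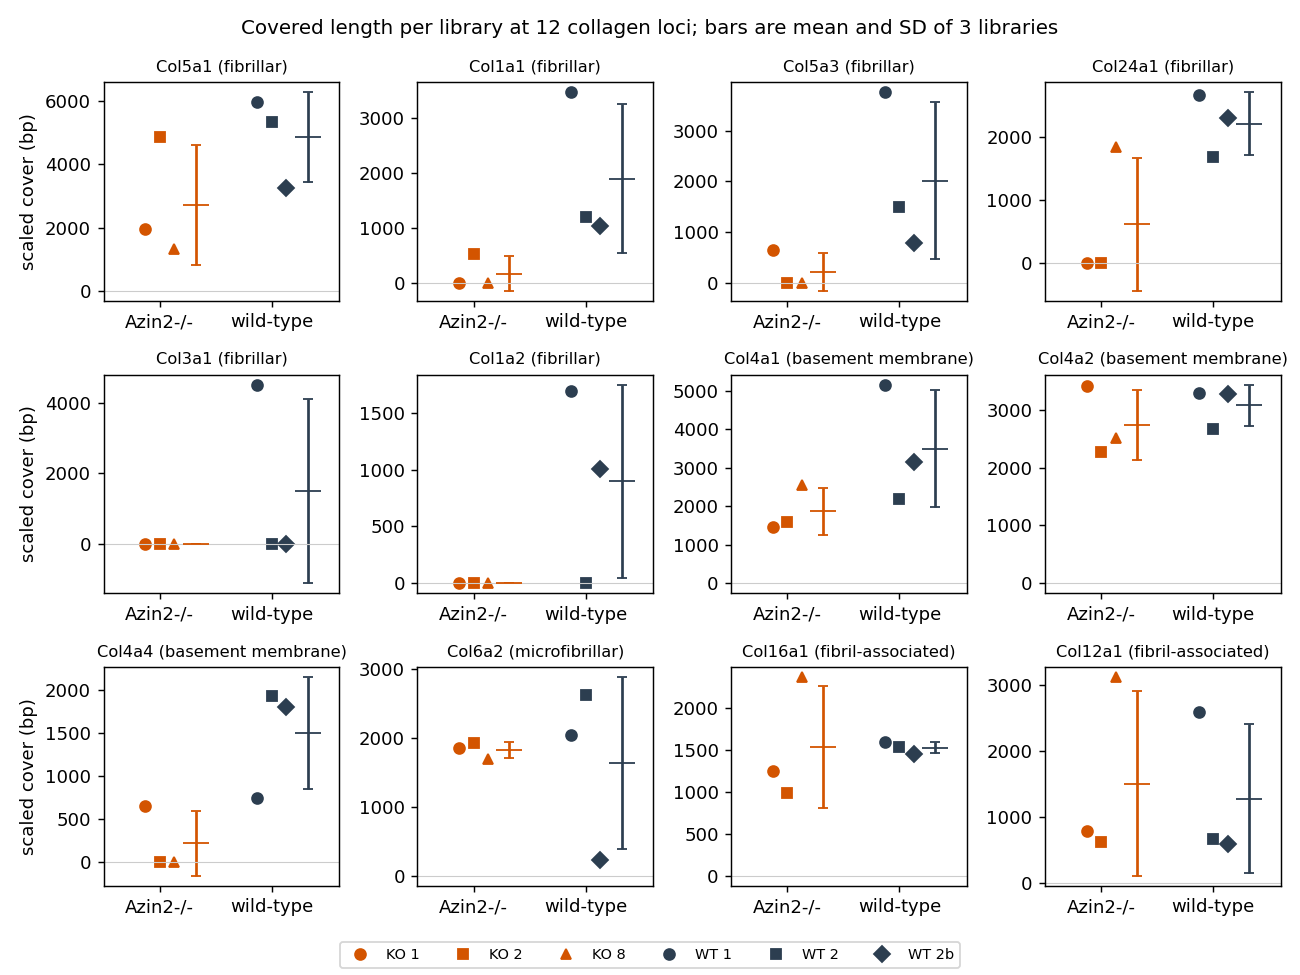
Scaled covered length (bp) per library at 12 collagen loci, Azin2-/- in orange on the left and wild-type in dark blue on the right, with marker shape for the replicate and a bar for mean and SD of 3 libraries; each panel has its own axis. Azin2-/- points of Col1a1, Col5a3 and Col4a4 lie under all wild-type points, and those of the other 9 loci overlap or, at Col3a1 and Col1a2, sit at 0 beside a wild-type library that is also at 0.

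Within the basement membrane class the shared start of Col4a1 and Col4a2 was acetylated in all 6 libraries. The region spanned chr8:11311666-11314218 and its peak ranked 1090, 2421 and 4073 in Azin2-/- replicates 1, 2 and 8, and 1687, 2586 and 1281 in wild-type replicates 1, 2 and 2b. It is counted in both loci, since each reaches over the other's start. Col4a1 (chr8:11198423-11312889) had 1457, 1592 and 2566 bp in Azin2-/-, against 5160, 2190 and 3147 bp in wild-type. Azin2-/- replicate 8 exceeded wild-type replicate 2, and the difference was -0.72 ± 0.38. Col4a2 had 3419, 2270 and 2505 bp in Azin2-/-, against 3300, 2670 and 3269 bp in wild-type. Its groups overlapped and its difference was -0.16 ± 0.32.

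The minor type IV chains, known from kidney, cochlea and other specialised basement membranes, carried no main peak at either gene end in the 6 libraries. Col4a4 had 653, 0 and 0 bp in Azin2-/-, against 745, 1929 and 1803 bp in wild-type, a difference of -1.53 ± 0.58 (limma adjusted p = 0.743). The groups did not overlap, by a margin of under 100 bp, between Azin2-/- replicate 1 and wild-type replicate 1. Before scaling these libraries had 812 and 540 bp, the opposite order, so the groups overlapped. Of its 6 regions 5 were held by 1 library. With the 60000 strongest peaks its difference was 0.27, the opposite sign. Col4a3 had 2382, 681 and 1704 bp in Azin2-/-, against 1765, 3214 and 1863 bp in wild-type, a difference of -0.47 ± 0.42 with overlapping groups. The region of Col4a3 held by all 6 libraries lies in its flank (chr1:82724273-82725863), within 1 kb of an end of the neighbouring gene Mff, a mitochondrial fission factor.

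Col4a5 was the only collagen with main peaks in all 3 wild-type libraries and in no Azin2-/- library, a pattern found at 0.203% of all protein-coding genes. That is 44 genes, while the reverse pattern was found at 149 genes and at 0 collagens. Col4a5 spans 213.9 kb, against a median of 17.3 kb over all protein-coding genes. It had 0 bp in each Azin2-/- library, against 388, 529 and 623 bp in wild-type replicates 1, 2 and 2b. The peaks lay in 4 separate regions inside the gene, each held by 1 library, with strongest ranks of 10786, 29912 and 25904. In Azin2-/- replicate 2 the strongest deposited peak ranked 32834, just outside the main list. The locus was under the minimum mean and was not tested. Col4a6, next to it on the X chromosome, had a difference of -0.77 ± 0.79. All 5 tested loci of the class were thus negative, with a median of -0.72, which was -0.32 with the 15000 strongest peaks.

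**Figure D4:**
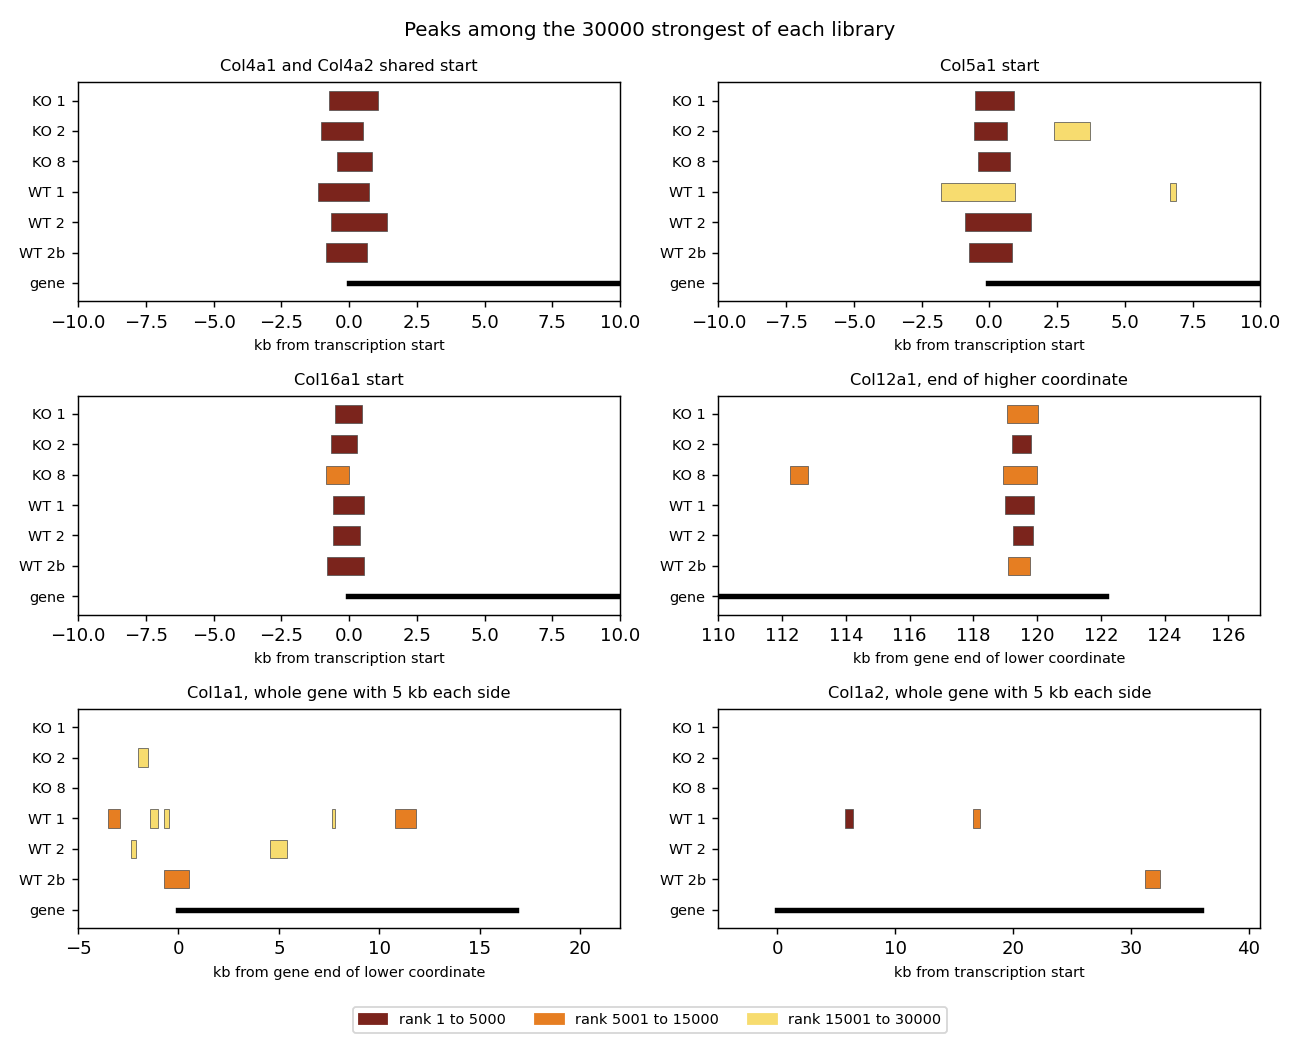
Main peaks of the 6 libraries (rows, Azin2-/- above wild-type; bars, coloured by rank within the library) at 6 collagen loci, in kb from the transcription start or, where no start was in the reference table, from the gene end of lower coordinate. Peaks stack at the starts of Col4a1 and Col4a2, Col5a1 and Col16a1 and at one site in Col12a1, and are scattered at Col1a1 and Col1a2.

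Microfibrillar genes showed no region held by 4 or more libraries, and 73.4% of their cover lay in regions of 1 library, against 60.1% over all collagens. Of 4 tested, 3 were positive and 1 negative, with a median of 0.21 and a smallest adjusted p of 0.905. Col6a2 and Col6a1 encode core chains of type VI collagen, the beaded filament abundant in fat. Col6a2 had 1846, 1916 and 1695 bp in Azin2-/-, against 2031, 2622 and 228 bp in wild-type. The Azin2-/- libraries lay close together and inside the wild-type range, and the difference was 0.37 ± 0.52. Col6a1 had 377, 3656 and 0 bp in Azin2-/-, against 758, 892 and 0 bp in wild-type, so its higher mean rested on Azin2-/- replicate 2. Its difference was 0.35 ± 0.81.

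Col6a3, the large chain from which the adipokine fragment endotrophin is cut, was under the minimum, with 0, 0 and 240 bp in Azin2-/- against 917, 0 and 213 bp in wild-type. Col6a4, an alternative chain, was also untested, with peaks in 2 libraries of each genotype. Among the tested alternative chains, Col6a6 had 270, 786 and 1339 bp in Azin2-/-, against 412, 2832 and 306 bp in wild-type. Its difference was -0.14 ± 0.63. Col6a5 had 0, 250 and 2043 bp in Azin2-/-, against 554, 1083 and 0 bp in wild-type, a difference of 0.06 ± 0.77. In both, one library of each genotype held most of the cover.

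Fibril-associated genes held a pair of sites present in all 6 libraries, at the start of Col16a1 and inside Col12a1. Of 7 tested, 4 were positive and 3 negative, with a median of 0.14 and a smallest adjusted p of 0.794. Col16a1 encodes type XVI collagen. Peaks in its start region (chr4:130046995-130048407) ranked 744, 171 and 6346 in Azin2-/- replicates 1, 2 and 8 and 265, 685 and 700 in wild-type replicates 1, 2 and 2b. Col16a1 had 1248, 992 and 2367 bp in Azin2-/-, against 1591, 1534 and 1456 bp in wild-type. The wild-type libraries lay close together while Azin2-/- spread on both sides of them, and the difference was -0.05 ± 0.38. Col12a1, whose product ties fibres to surrounding matrix, held its site at chr9:79717907-79719010, inside the gene near its end of higher coordinate. It had 777, 614 and 3110 bp in Azin2-/-, against 2579, 661 and 578 bp in wild-type, with 1 high library in each group and a difference of 0.14 ± 0.58.

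Col19a1, found at junctions and basement membrane zones, had the second-highest fitted difference of the family, 0.78 ± 0.52, with no call. Its values were 4589, 3961 and 756 bp in Azin2-/-, against 1071, 1785 and 1055 bp in wild-type. Azin2-/- replicates 1 and 2 lay above every wild-type library and replicate 8 below. Col22a1, a collagen of tissue junctions, had the largest mean cover of the class, with 1700, 4021 and 2468 bp in Azin2-/-, against 1420, 3478 and 2131 bp in wild-type. The groups overlapped and the difference was 0.18 ± 0.40. Col14a1, Col9a1 and Col9a3 were between -0.15 and 0.29, and Col9a2 and Col20a1 were untested.

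Among the remaining collagens Col23a1, a transmembrane collagen, had the largest mean cover of the family. It had 3745, 5270 and 2538 bp in Azin2-/-, against 5380, 3786 and 4518 bp in wild-type, and its start region was held by 5 libraries, wild-type replicate 2b being the exception. The groups overlapped, with a difference of -0.25 ± 0.35. Col18a1, the basement membrane collagen that yields endostatin, had 4638, 2972 and 0 bp in Azin2-/-, against 3645, 4383 and 920 bp in wild-type. Azin2-/- replicate 8 was the lone library without a main peak there, and the difference was -0.56 ± 0.78. Col25a1, a transmembrane collagen of neurons, had 649, 5224 and 966 bp in Azin2-/-, against 1895, 2758 and 2955 bp in wild-type, a difference of -0.49 ± 0.55. Azin2-/- replicate 2 was the highest of all 6.

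Col13a1, a transmembrane collagen of the neuromuscular junction, had a difference of 0.62 ± 0.53, without a call. It had 2955, 3065 and 1565 bp in Azin2-/-, against 3479, 1637 and 325 bp in wild-type, with overlap. Its start region was held by all 3 Azin2-/- libraries and by wild-type replicate 2. Of the 10 tested loci of other kinds, 8 were negative and 2 positive, Col13a1 and Col26a1, and the smallest adjusted p was 0.778. The negative ones ran from -1.24 at Col28a1 to -0.25 at Col23a1. Col7a1, the anchoring fibril collagen of skin, was untested, with main peaks in 3 libraries.

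Most collagen peaks were found in 1 library only. The main peaks of the 6 libraries merged into 374 regions over the collagen loci, and 329 of these (88.0%) were held by 1 library, close to the 85.8% of all 128480 regions in the genome. Only 5 (1.34%) were held by all 6, against 3.23% of all regions. Of the single-library regions 130 (39.5%) came from Azin2-/- libraries and 199 (60.5%) from wild-type libraries, beside 46.1% and 53.9% of such regions in the genome. Wild-type replicate 1, the library of lowest background, contributed 83 of the 199. By length, 41.5, 59.5 and 62.2% of the collagen cover of Azin2-/- replicates 1, 2 and 8 lay in such regions, against 75, 60.2 and 64.0% in wild-type replicates 1, 2 and 2b. Regions held by 4 or more libraries numbered 14, and 8 of these lay at transcription starts.

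With 3 libraries per genotype, any region held by 4 or more has to include both genotypes, so these 14 do by definition. The Col5a1 start region (chr2:27884657-27887960) measured 1432, 1215 and 1192 bp in Azin2-/- replicates 1, 2 and 8, against 2714, 2448 and 1580 bp in wild-type replicates 1, 2 and 2b, before scaling. At the Col4a1 and Col4a2 start the widths were 1812, 1552 and 1307 bp in Azin2-/-, against 1862, 2066 and 1516 bp in wild-type. The wild-type widths at the Col5a1 start were all above the Azin2-/- ones, and those at the Col4a1 and Col4a2 start overlapped. At the Col16a1 start they were 997, 967 and 842 bp in Azin2-/-, against 1154, 1005 and 1362 bp in wild-type, again without overlap. The site in Col12a1 measured 967, 598 and 1081 bp in Azin2-/-, against 930, 624 and 696 bp in wild-type, and the Col4a3 flank 1394, 465 and 609 bp in Azin2-/-, against 898, 1123 and 856 bp in wild-type, both with overlap. Azin2-/- widths were thus wholly lower at 2 of the 5 regions and wholly higher at 0, where 3.83% and 3.57% of the 4149 regions held by all 6 libraries were. Pileups at the Col16a1 summit were 22, 16 and 13 fragments in Azin2-/- and 13, 15 and 27 in wild-type, with overlap. These widths were set separately in each deposited list, whose main peaks covered 21.1 to 28.9 Mb per Azin2-/- library, against 16.9 to 28.0 Mb per wild-type library, and they were not tested.

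Promoters of collagens with recurrent start peaks held more CG dinucleotides than those without. RefSeq windows were found for 35 of the 44 genes. For genes with several starts the window was that of the start of lowest coordinate, here and over all genes. A peak at any start was counted, so window and peak can belong to different starts. At Col18a1 the window was chr10:77113656-77113955 and the start peak chr10:77165439-77167551. The median was 30.5 CG for the 8 genes with a start peak in 4 to 6 libraries, 10 for the 9 genes with 1 to 3 libraries and 7.5 for the 18 with none. Over 17274 protein-coding genes with a window the same groups had medians of 25, 15 and 4, so collagens followed the general order. Col25a1 stood apart with 23 CG and no start peak. Col15a1, a basement membrane zone collagen, had 8 CG and a start peak in 3 libraries, close to the median of its group. Start peaks in all 6 libraries marked 11.4% of the collagen windows, against 19.0% of all.

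**Figure D5:**
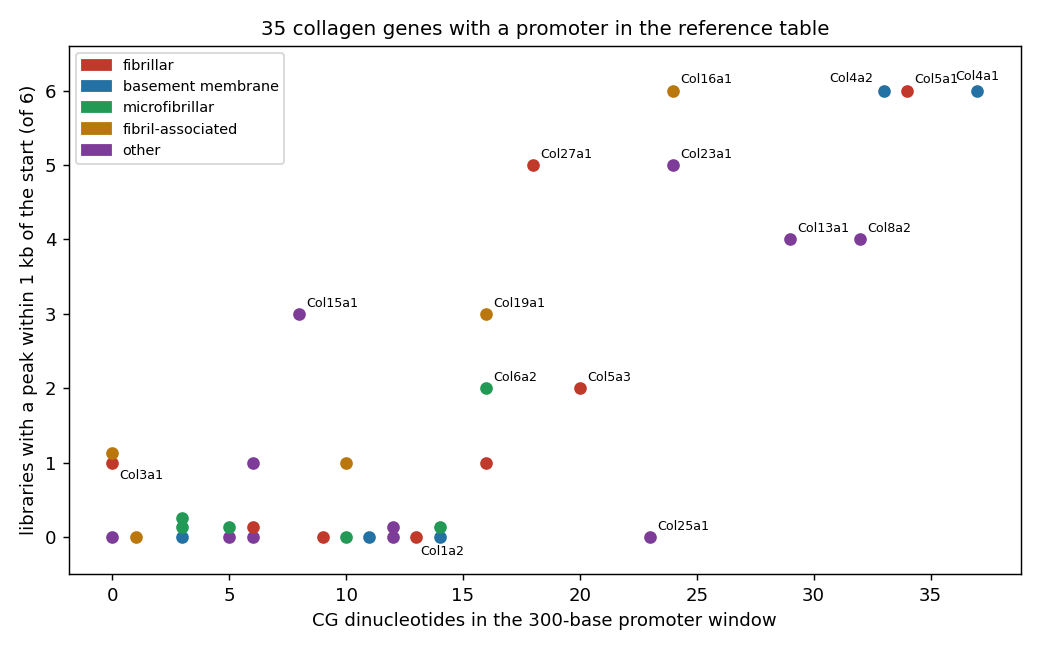
Number of libraries with a main peak within 1 kb of any transcription start (of 6, tied points offset upwards). It is set against CG dinucleotides in the 300-base window of the lowest-coordinate start, for 35 collagen genes coloured by class. Genes with 4 or more libraries all have at least 18 CG, and Col1a2 and Col3a1 sit at the lower left.

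Short motifs were searched on both strands of the same windows: the CCAAT box, spelled as in its name, the TATA box, spelled TATAAA, and the GC box, spelled GGGCGG, which itself contains a CG dinucleotide. The CCAAT box occurred in 11 of the 35 collagen windows (31.4%, against 39.3% of all windows), the TATA box in 5 (14.3%, against 13.4%) and the GC box in 21 (60.0%, against 46.4%). The 4 windows with a start peak in all 6 libraries all held the GC box and none held the TATA box, and the same was true of Col1a2, which had no start peak. Among all protein-coding windows with a start peak in 6 libraries, 75.1% held the GC box, 5.69% the TATA box and 33.4% the CCAAT box. The Col4a1 and Col4a2 windows share 78 bp, so the 4 are not fully separate. Col4a1, Col4a2 and Col16a1 held the CCAAT box, as did Col1a2, whereas Col3a1 held the TATA box and no other of these motifs. These are matches of letters in a window.

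Genes that make and process collagen had fitted differences of both signs, and most genes of its receptors had negative ones, without calls in either list. Of 30 genes for hydroxylation, folding, secretion, trimming and crosslinking, 27 were tested, 13 were positive and 14 negative, with a median of -0.02. Loxl1, a crosslinking oxidase, had a difference of -0.97 ± 0.43, from 1612, 965 and 1754 bp in Azin2-/- against 4228, 5060 and 1497 bp in wild-type. Sparc, a collagen-binding matricellular protein, had no main peak in Azin2-/- and 2871, 0 and 866 bp in wild-type. The smallest p on the positive side belonged to Loxl4, another oxidase, at 1.05 ± 0.62, and Pcolce2, an enhancer of procollagen trimming, at 1.07 ± 0.69. The smallest adjusted p of the list by limma was 0.762.

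Of 8 collagen receptors 7 were tested, 6 were negative and 1 positive, with a median of -0.91. An unadjusted p under 0.05 by limma was reached at 3, all lower in Azin2-/-, beside 2.13% of all tested loci. Ddr2, a receptor tyrosine kinase for fibrillar collagen, had 75.6, 1874 and 0 bp in Azin2-/-, against 4555, 1766 and 3878 bp in wild-type, a difference of -2.07 ± 0.60 (limma adjusted p = 0.743). Its groups overlapped through Azin2-/- replicate 2. Ddr1, its paralogue, had 787, 2665 and 0 bp in Azin2-/-, against 4058, 2798 and 2552 bp in wild-type, a difference of -1.50 ± 0.58, also with overlap. The lone positive locus was Itga2, an integrin subunit, at 0.31 ± 0.64. The summed cover of the 8 was 7.62, 8.94 and 8.43 kb in Azin2-/- replicates 1, 2 and 8, against 21.5, 11.9 and 15.9 kb in wild-type replicates 1, 2 and 2b, without overlap. Taken singly, 0 of the 7 tested receptors were wholly lower in Azin2-/-, beside 4.93% of all tested loci.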

How the data were processed

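ChIP-seq for H3K27ac was deposited as 1 peak list per library; replicates were not pooled. Lists are on GRCm38 (mm10), per the submitters' processing notes; the sources used here do not give the aligner, peak caller, control or duplicate filter. For each peak the authors' lists give a score, a fold ratio of summit over local background, and −log10 values of a p-value and q-value. These deposited values are the authors' and served only to rank, filter and describe peaks within a list. Fold and p imply a whole pileup and a background, if a pseudocount of 1 was used; this held for 100% of peaks at a tolerance of 0.001 (log10). Read totals are not given, so depth is known only through that background, and precision is limited by pileups of a few fragments.

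Peaks on chromosomes 1 to 19 and X were ranked by p, and the first 30000 per library were kept. Covered length per locus was scaled to equal total cover, log2(bp + 500) was taken, and loci with a mean of at least 500 bp were fitted with limma 3.58.1 (eBayes, mean trend; R 4.3.3), genotype as the sole term, with Benjamini-Hochberg adjustment over all tested loci. Differences are fitted, Azin2-/- minus wild-type, and understate changes of thinly covered loci. Peaks from different lists that shared at least 1 bp were joined into regions. Gene spans come from RefSeq's table, which has no exons. Tables were built with Python 3.11.15, numpy 2.4.6, pandas 2.3.3 and scipy 1.17.1.

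Genes described in full were the 4 of largest mean cover per class, the 3 of smallest p in each direction, and any with main peaks in all libraries of 1 genotype and none of the other; 2 per direction were named from the synthesis and receptor lists. Other genes are given by counts, or named outside that rule after their values were seen (Col1a2, Col3a1, Col5a2, Col6a3 and the like). Members and lists were chosen with earlier results of these data known. Alternatives were other list lengths, q thresholds, pseudocounts, minimums, flanks, scalings, fixed windows around summits, wider gene ends, starts alone, leaving out each library, averaging wild-type 2 with 2b, and a replicate block. The block was fitted on replicates 1 and 2 of each genotype alone.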

Additional observations from a re-analysis of the deposited data

How the results depend on the processing

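No collagen locus was called under any of the 23 alternatives. Over all loci, calls higher and lower in Azin2-/- numbered 22 and 4 at a deposited q of 0.01 or less, 43 and 16 with fixed windows around summits, and 11 and 1 with the replicate block, none a collagen; the cause was not tested. Collagen loci wholly lower in Azin2-/- were 3 of 34 tested as reported (4.93% of all tested loci). They were 1 of 5 with 5000 peaks (8.22% of all), 5 of 42 with 60000 (5.23%), 5 of 25 at a q of 0.05 (6.57%), 9 of 31 with the block (14.7%) and 6 of 33 with wild-type 2 and 2b averaged (10.8%). Without Azin2-/- replicates 1, 2 and 8 in turn they were 5, 6 and 7 (10.5, 8.04 and 8.34% of all), and without wild-type replicates 1, 2 and 2b 5, 8 and 5 (9.15, 11.9 and 9.98%). Wholly higher loci, 0 as reported (6.72% of all), were 2 with 60000 peaks (5.74%), 1 at a q of 0.05 (4.65%), 2 with the block (21.9%), 1 without Azin2-/- replicate 1 or 8 (9.92 and 13.9%), 2 without wild-type replicate 2 (14%) and 0 without each of the others. With 4 libraries of intermediate background (Azin2-/- replicates 1 and 2, wild-type replicates 2 and 2b), chosen after seeing the data, 8 of 31 were lower (13.7% of all) and 2 higher (21.0%).

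The median of all collagens stayed negative throughout, between -0.373 and -0.035. The value of -0.035, at a q of 0.01, was close to the median of all tested loci at that setting. The fibrillar median was 0.373 with 5000 peaks (1 locus), -0.406 with 60000, -0.403 at a q of 0.01 and -0.340 with the 4 libraries. The basement membrane median was -0.268 with 5000 peaks and -0.316 with 15000, the fibril-associated one -0.752 with 5000 and that of other collagens 0.358 at a q of 0.01. Microfibrillar loci could not be fitted with 5000 or 15000 peaks or at either q, as none reached the minimum. Genes with an end peak in all 6 libraries, 5 as reported, were 2 with 5000 peaks, 3 with 15000 and 3 at a q of 0.01. Loci with any peak in all 6, 16 as reported, were 2 with 5000, 8 with 15000, 28 with 60000, 9 at a q of 0.05 and 6 at a q of 0.01. Of 22 tested loci described in full, 14 had the other sign under at least 1 alternative and 8 under none: Col1a1, Col5a3, Col24a1, Col2a1, Col4a1, Col4a3, Col13a1 and Col19a1. Only Col4a1 and Col4a3 of these 8 were fitted under all 23 alternatives. Col2a1 was fitted under 19, Col5a3 under 20 and the others under 22. Replicate numbers 1 and 2 occur in both genotypes, but deviations of same-numbered libraries correlated by -0.04 and 0.116, so the numbers were not taken as pairs. Shallow peaks limit every value.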
